A study of Mus musculus with 9 samples.

Results

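The genes described here are 4 textbook targets of the transcriptional coactivator Yap: Ctgf, Cyr61, Amotl2 and Ankrd1. They were picked by gene name as textbook targets, with earlier results of these data known. Each symbol matched 1 of the 16070 rows of the expression table, and 3 of the 4 passed the filter on low values that left 11850 genes for testing. Ankrd1 did not pass it. The 9 RNA libraries came from mouse embryos of the C57BL/6 strain, cultured in vitro and labelled as 4.5 days after microinjection, about the late blastocyst. There were 3 libraries each of wild type (WT), of embryos labelled with the H3R17H substitution, in which histidine replaces arginine 17 of histone H3, and of embryos labelled Carm1-/-, without the methyltransferase that acts on that arginine. The title of the series names CRISPR-Cas9 editing and Yap signalling as the subject. The labels do not say what the WT embryos received. Nothing in them says that the 3 libraries of a group came from separate embryos, and the labels name the material in one place as embryo and in another as single cell. A p-value here therefore speaks of the scatter among these libraries, which may be technical. In each edited group only replicate 1 had Y-linked transcripts, so the 3 libraries of that group did not all come from the same embryo. In WT all 3 had them, and whether they came from separate embryos is unknown.

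Yap and its paralogue Taz (Wwtr1) have no DNA-binding domain and act on promoters and enhancers through the Tead proteins. The Hippo kinases Lats1 and Lats2 phosphorylate Yap and keep it in the cytoplasm. In the blastocyst Yap is nuclear in the outer cells, where with Tead4 it supports Cdx2 and the trophectoderm, and cytoplasmic in the inner cells. Ctgf and Cyr61 encode secreted matricellular proteins of the CCN family. Amotl2 encodes an angiomotin, a junction protein that binds Yap and holds it outside the nucleus, so its induction is a known negative feedback of the pathway. Ankrd1 encodes a nuclear and sarcomeric ankyrin repeat protein best known from heart muscle. In bulk RNA, fewer cells of a type and less RNA per cell cannot be told apart.

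The promoters of 3 of the 4 genes are shown because the Tead motif in them is the sequence feature that the genes share as Yap targets. The windows run from 250 bases before to 50 bases after the RefSeq start (GRCm38.p6), and capitals mark GGAATG, the core of the Tead site, or its reverse complement. Cyr61 lies at chr3:145649936-145650235 on the minus strand, Amotl2 at chr9:102717554-102717853 on the plus strand and Ankrd1 at chr19:36119795-36120094 on the minus strand. No entry was matched for Ctgf.
Cyr61: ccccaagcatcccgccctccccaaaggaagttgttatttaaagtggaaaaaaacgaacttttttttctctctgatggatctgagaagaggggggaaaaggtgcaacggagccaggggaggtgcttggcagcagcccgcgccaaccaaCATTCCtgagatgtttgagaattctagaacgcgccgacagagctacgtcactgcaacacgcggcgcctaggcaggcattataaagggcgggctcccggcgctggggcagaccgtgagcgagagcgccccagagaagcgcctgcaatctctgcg
Amotl2: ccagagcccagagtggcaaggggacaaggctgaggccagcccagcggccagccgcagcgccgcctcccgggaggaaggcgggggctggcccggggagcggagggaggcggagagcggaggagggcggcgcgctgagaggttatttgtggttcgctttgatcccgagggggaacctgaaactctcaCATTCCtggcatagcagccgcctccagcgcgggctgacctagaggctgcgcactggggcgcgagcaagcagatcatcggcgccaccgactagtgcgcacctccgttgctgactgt
Ankrd1: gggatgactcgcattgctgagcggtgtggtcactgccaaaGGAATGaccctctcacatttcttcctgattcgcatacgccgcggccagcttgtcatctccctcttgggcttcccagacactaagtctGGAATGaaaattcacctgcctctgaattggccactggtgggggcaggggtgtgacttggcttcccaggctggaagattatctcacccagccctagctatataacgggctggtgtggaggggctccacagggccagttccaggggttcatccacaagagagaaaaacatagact
The core was searched on both strands. Cyr61 held 1 match, 98 to 103 bases upstream of the start, and Amotl2 held 1, 60 to 65 bases upstream. Ankrd1 held 2, at 118 to 123 and 205 to 210 bases upstream. Of all 32851 promoter windows in the reference table, 14.7% held at least 1 match and 1.36% held 2 or more. None of the 3 windows held the AP-1 site TGANTCA, which 7.8% of all windows held, or a CArG box (the site of serum response factor), which 1.6% held. A match is a run of letters and no measured binding. The gene bodies were placed on GRCm38 with GENCODE M21, where Ctgf and Cyr61 carry their newer names Ccn2 and Ccn1. Ctgf lies on chromosome 10 (24595442 to 24598683, plus strand) and Cyr61 on chromosome 3 (145646976 to 145649981, minus strand). Amotl2 lies on chromosome 9 (102716672 to 102733418, plus strand) and Ankrd1 on chromosome 19 (36111961 to 36120099, minus strand). The windows of Amotl2 and Ankrd1 fall inside these gene bodies, so upstream here means upstream of the RefSeq start only.

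The labels need a caution before any direction is read. Carm1 stood at 6.65 to 8.86 FPKM in WT, at 0.021 to 1.88 FPKM in the H3R17H-labelled libraries and at 6.44 to 12.7 FPKM in those labelled Carm1-/-, so its values went against the 2 edited labels. In the table the column names assign the 2 edited groups the other way round from the sample titles. Each group is called by its title. FPKM, the unit throughout, scales fragments by transcript length and library total, which allows levels of different genes to be set side by side. The depth of the libraries is unknown, and a listed 0 has no counting interval. All 3 WT libraries had Y-linked transcripts, against 1 of 3 libraries in each edited group (replicate 1 in both). Replicate 1 labelled Carm1-/- stood apart from its group. Its profile correlated across genes at 0.954 with the mean of the WT libraries and at 0.921 with the mean of the other edited libraries, while the other 5 edited libraries were closer to the edited mean.

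Markers of the blastocyst lineages were present, and few markers of fibroblasts, cumulus and granulosa cells or oocytes were in the table. A marker without a row has no value, which is not a measured 0. Markers of heart and skeletal muscle are given below with Ankrd1. Of 15 trophectoderm markers and 12 epiblast markers all were in the table with none at 0 in WT. Of 14 primitive endoderm markers 13 were in the table, with 1 of them at 0 in each WT library. Summed trophectoderm markers came to 5716 to 8758 FPKM in WT, 1643 to 4654 in the H3R17H-labelled libraries and 2077 to 9260 in those labelled Carm1-/-, the highest in replicate 1 there. In each library most of this sum was Krt8 and Krt18 (2229 and 2663 FPKM in WT replicate 1). Between 0 and 3 of the 15 were at 0 in an edited library. Summed epiblast markers were 251 to 328, 301 to 344 and 286 to 396 FPKM, and primitive endoderm markers 217 to 282, 162 to 195 and 120 to 297 FPKM. Of 8 fibroblast markers 1 was matched, at most at 1.59 FPKM, and of 8 cumulus and granulosa markers 0 were. Of 7 oocyte markers 3 were matched, with sums of at most 1.32 FPKM in WT and in the H3R17H-labelled libraries. In the libraries labelled Carm1-/- those sums were 2.27 to 22.1 FPKM, most of it Zp3 (20 FPKM in replicate 2). The part of these markers in the values below was not tested.

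In WT the 4 genes had a fixed order of level. Cyr61 was the highest, Amotl2 next, then Ctgf, and Ankrd1 at or near 0 in each of the 3 libraries. The order was another one in the H3R17H-labelled libraries, where Ctgf stood above Amotl2 in all 3 of them. It was again Cyr61, Amotl2 and Ctgf in the 3 libraries labelled Carm1-/-. No difference of Ctgf, Cyr61 or Amotl2 between groups passed limma (Benjamini-Hochberg over the 11850 genes), and the differences that came closest were those of Ctgf.

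**Figure D1:**
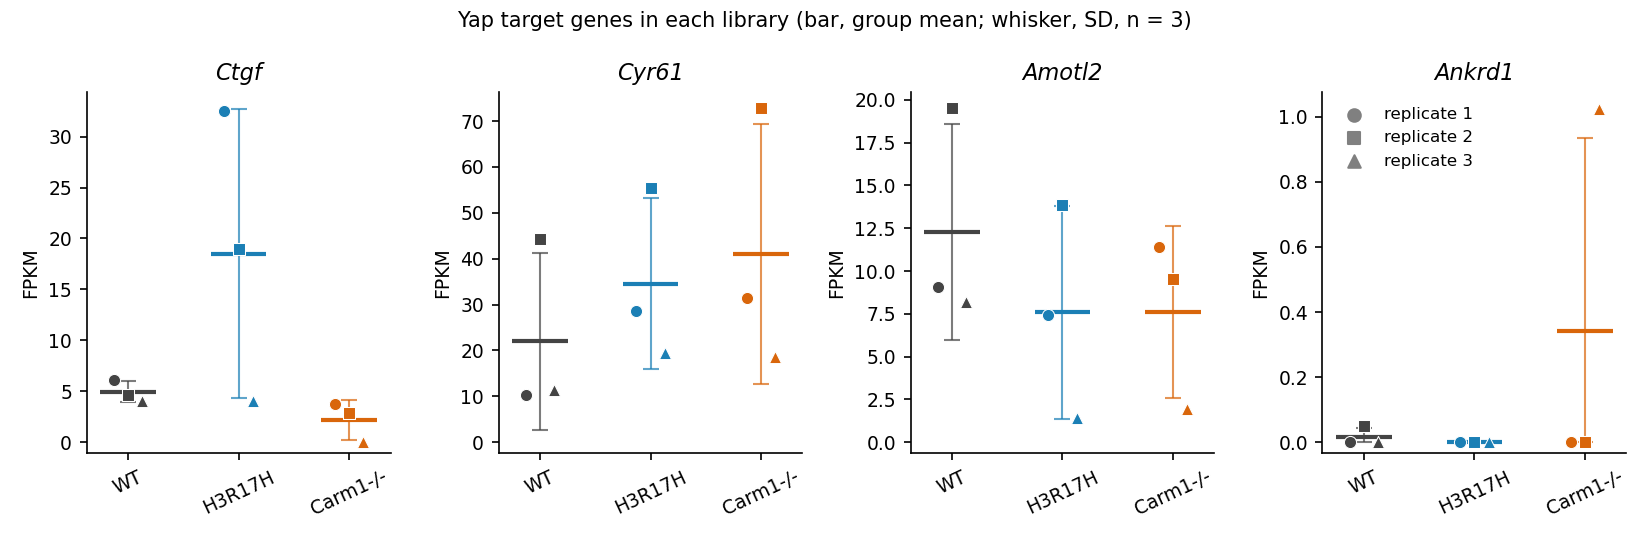
FPKM of Ctgf, Cyr61, Amotl2 and Ankrd1 in the 9 libraries (points; symbol, replicate number), with the group mean (bar) and SD (whisker, n = 3, drawn down to 0 at most) on an axis of its own for each gene. Ctgf reaches 32.5 and 19.0 FPKM in 2 libraries labelled H3R17H and is at most 6.11 in the other 7, whereas Cyr61 and Amotl2 spread widely within every group.

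Ctgf, which links growth factor signals to the extracellular matrix, varied most between groups. It was at 6.11, 4.64 and 4.10 FPKM in WT replicates 1 to 3. In the H3R17H-labelled libraries it was at 32.5, 19.0 and 4.07 FPKM, and in those labelled Carm1-/- at 3.74 and 2.85 FPKM and listed at 0 in replicate 3. Thus replicates 1 and 2 labelled H3R17H were above every WT library and replicate 3 was just below the lowest. The 3 libraries labelled Carm1-/- all lay below all WT libraries and below all libraries labelled H3R17H, although only by 3.74 against 4.10 and 4.07 FPKM at the nearest. In terms of rank, Ctgf exceeded 57.6% to 63.5% of the genes of the table in WT, and 84.9% and 80.3% in replicates 1 and 2 labelled H3R17H.

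On the log2(FPKM + 1) scale, which understates the change of low genes, Ctgf differed by 1.35 in H3R17H vs WT (SE 0.72, 95% interval -0.24 to 2.94; limma, adjusted p = 0.414). Against WT, the libraries labelled Carm1-/- differed by -1.16 (SE 0.72, interval -2.75 to 0.43; limma, adjusted p = 0.541). Neither passed. These comparisons share the WT libraries. The direct comparison of Carm1-/- with H3R17H gave -2.51 (SE 0.72, interval -4.10 to -0.92). Its p before adjustment was 0.0053 in limma, and its adjusted p of 0.415 did not pass. In that comparison 0% of the 11850 genes passed the adjusted threshold, 8.21% had an unadjusted p under 0.05, and 6.07% had non-overlapping groups in the lower direction, as Ctgf had. For Carm1-/- vs WT, 9.71% of genes had non-overlapping groups in that direction.

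Single libraries carried much of these values. Without replicate 1 labelled H3R17H the difference of Ctgf in H3R17H vs WT was 0.77, and without replicate 3 it was 2.14. Without replicate 3 labelled Carm1-/-, where it was listed at 0, the difference in Carm1-/- vs WT was -0.46. Among the libraries with Y-linked transcripts, Ctgf was at 4.10 to 6.11 FPKM in 3 WT libraries, at 32.5 in 1 labelled H3R17H and at 3.74 in 1 labelled Carm1-/-. A fit of those 5 libraries gave 2.51 and -0.31 against WT (limma, adjusted p = 0.0842 and 0.714). With 1 library in each edited group there, that library is assumed to vary like the WT libraries.

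Cyr61, the other CCN protein, was at 10.3, 44.3 and 11.4 FPKM in WT. It was at 28.6, 55.4 and 19.6 FPKM in the H3R17H-labelled libraries and at 31.5, 72.8 and 18.6 FPKM in those labelled Carm1-/-. All 6 edited libraries were above 2 of the 3 WT libraries. WT replicate 2 was above 4 of the 6, so the groups overlapped. The differences were 0.81 in H3R17H vs WT (SE 0.62, interval -0.56 to 2.19) and 0.96 in Carm1-/- vs WT (SE 0.62, interval -0.41 to 2.34). Neither passed in limma (adjusted p = 0.574 and 0.554). Between the edited groups the difference was 0.15 (interval -1.23 to 1.53; limma, adjusted p = 0.963), an interval that leaves room for a change of more than 1 in either direction. Without WT replicate 2 the differences from WT were 1.46 and 1.61 (limma, adjusted p = 0.485 and 0.631), and without replicate 2 labelled Carm1-/- the second was 0.45. Without replicate 2 labelled H3R17H the first was 0.41.

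Amotl2, the junction protein that restrains Yap, was at 9.09, 19.5 and 8.18 FPKM in WT. It was at 7.44, 13.9 and 1.43 FPKM in the H3R17H-labelled libraries and at 11.4, 9.53 and 1.93 FPKM in those labelled Carm1-/-. Replicate 3 of each edited group was far below the other 7 libraries, and the remaining 4 edited libraries lay within or just below the WT range. The differences were -0.88 in H3R17H vs WT (SE 0.71, interval -2.45 to 0.69) and -0.77 in Carm1-/- vs WT (SE 0.71, interval -2.34 to 0.80). Neither passed in limma (adjusted p = 0.594 and 0.691). Without replicate 3 of the group compared they were -0.15 and -0.12. Between the edited groups the difference was 0.11 (interval -1.46 to 1.68; limma, adjusted p = 0.98).

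Ankrd1 was hardly detected. It was listed at 0 in 7 of the 9 libraries, at 0.049 FPKM in WT replicate 2 and at 1.02 FPKM in replicate 3 labelled Carm1-/-. That library was the one in which Ctgf was listed at 0. Having reached 1 FPKM in 1 library only, Ankrd1 was not tested, and no fold is given against groups at 0. Without the filter its adjusted p in limma was at least 0.683 in the 4 comparisons. Of 8 markers of heart and skeletal muscle 6 were matched, with sums of 5.50 to 9.44 FPKM in WT, 6.56 to 15.2 in the H3R17H-labelled libraries and 9.44 to 20.1 in those labelled Carm1-/-.

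**Figure D2:**
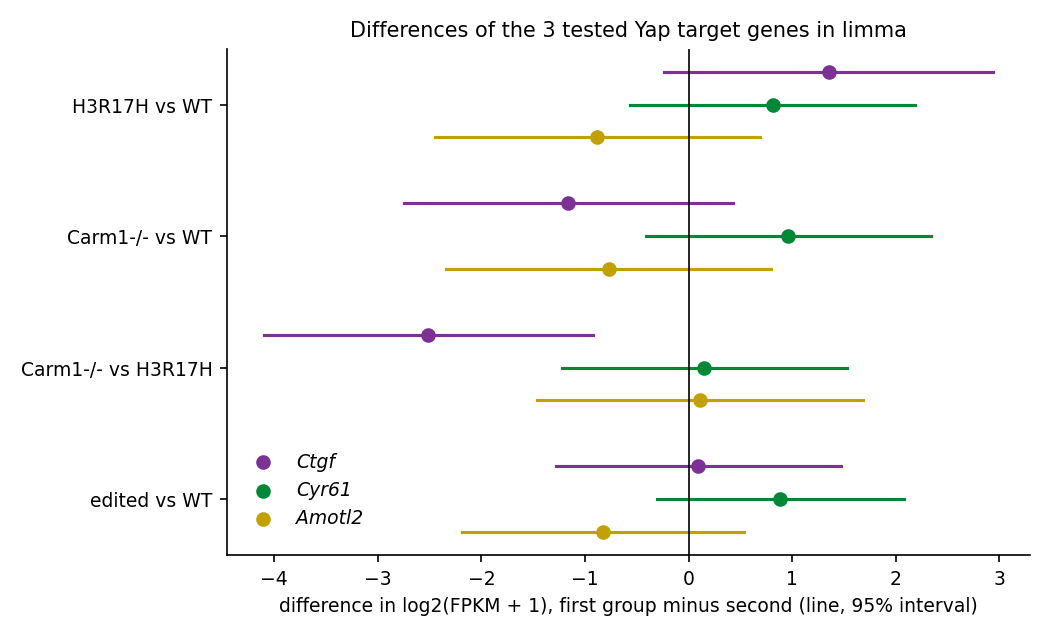
Differences of Ctgf, Cyr61 and Amotl2 in log2(FPKM + 1) for the 4 comparisons (points, limma estimate; lines, 95% interval for a single gene, not adjusted for the number of genes). The interval of Ctgf in Carm1-/- vs H3R17H, -4.10 to -0.92, is the one that does not include 0, and its adjusted p is 0.415.

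Taking both edited groups against WT leaves the question of which edited label is right aside. Ctgf then differed by 0.10 (SE 0.62), with 2 of 6 edited libraries above all WT libraries and 4 of 6 below. Cyr61 differed by 0.89 (SE 0.54), with 2 of 6 above, and Amotl2 by -0.83 (SE 0.62), with 3 of 6 below. With 1 library left out Cyr61 ran from 0.53 (without WT replicate 1) to 1.53 (without WT replicate 2), and Amotl2 from -1.11 (without H3R17H replicate 2) to -0.46 (without H3R17H replicate 3 or WT replicate 2). None passed in limma (adjusted p = 0.958, 0.457 and 0.541), where 0% of the genes passed and 14.3% had an unadjusted p under 0.05. In an exact permutation test of 6 against 3 libraries, two-sided, p was 0.929 for Ctgf, 0.167 for Cyr61, 0.31 for Amotl2 and 1 for Ankrd1 (Benjamini-Hochberg over the 4 genes, at least 0.619). The smallest p such a test can give is 0.0238, and 3 against 3 libraries cannot go below 0.1.

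The 3 tested genes were among the more variable of the table. The SD of log2(FPKM + 1) within groups was 1.08 for Ctgf, 0.95 for Cyr61 and 1.08 for Amotl2. It was larger than that of 95.4%, 92.3% and 95.2% of all tested genes, and for each of them larger than that of 92.5% or more of genes of like level. The median SD of those genes was 0.49, 0.39 and 0.48. The ratio of the highest to the lowest library of a group reached 9.68 for Amotl2 and 7.99 for Ctgf in the H3R17H-labelled libraries, and 4.31 for Cyr61 in WT. By contrast, Ctgf spanned 1.49-fold in WT. An order by replicate number recurred in every group. Ctgf fell from replicate 1 to replicate 3, Cyr61 was highest in replicate 2, and Amotl2 was lowest in replicate 3. Over all tested genes same-numbered libraries did not deviate together, as given below. Whether this order in the 3 genes has a cause was not tested.

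**Figure D3:**
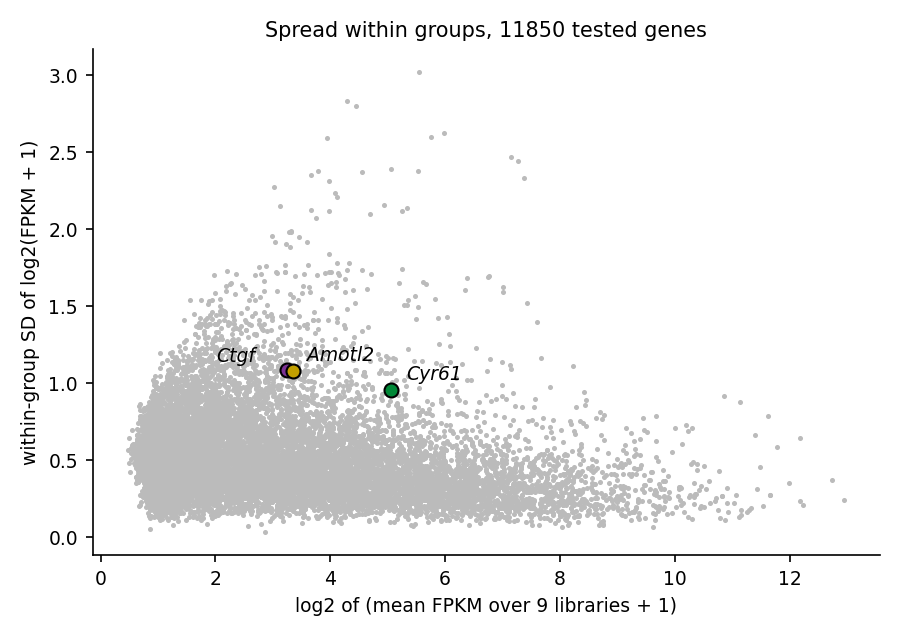
SD of log2(FPKM + 1) within groups (6 residual degrees of freedom) against the log2 of mean FPKM + 1 over the 9 libraries for the 11850 tested genes (grey), with Ctgf, Cyr61 and Amotl2 marked. The 3 genes lie near the upper edge of the cloud, at SDs of 1.08, 0.95 and 1.08.

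No relation between the genes across the libraries passed. Over the 9 libraries Pearson's r was 0.21 between Ctgf and Cyr61, 0.45 between Ctgf and Amotl2 and 0.44 between Cyr61 and Amotl2 (exact permutation p = 0.584, 0.22 and 0.239). Spearman's rho was -0.03, 0.23 and 0.60 (exact permutation p = 0.948, 0.552 and 0.0968). Without the 2 libraries farthest from the median of the first gene, r was 0.15, 0.28 and 0.62. With 12 further relations to Yap1, Wwtr1, Tead4 and Cdx2, 15 were computed. None passed Benjamini-Hochberg adjustment, for which the lowest value was 0.451 for r and 0.0911 for rho. By rho the closest was Cyr61 with Tead4, the Tead protein of the trophectoderm (r = 0.53, exact permutation p = 0.137; rho = 0.85, exact permutation p = 0.0061; r without the farthest 2 libraries, 0.60). Tead4 was lowest, at 7.48 FPKM, in replicate 3 labelled Carm1-/-, against 20.0 to 38.4 FPKM elsewhere. By r the closest was Amotl2 with Tead4, at r = 0.64 and rho = 0.70 (exact permutation p = 0.068 and 0.0433). Next by r was Ctgf with Wwtr1, which was negative (r = -0.60, exact permutation p = 0.0817). There rho was -0.33 (exact permutation p = 0.385), and r was 0.05 without the farthest 2 libraries. With Yap1, r was 0.38 for Ctgf, -0.57 for Cyr61 and 0.09 for Amotl2 (exact permutation p = 0.316, 0.111 and 0.807), and without the farthest 2 libraries it was -0.05, -0.20 and -0.03. Libraries with and without Y-linked transcripts were too few, 5 and 4, for a correlation in each.

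The genes whose pattern over the 9 libraries was most like each target were named by Pearson's r among 6059 genes of at least 5 FPKM on average, as a description with no test. For Ctgf they were Zcchc9 (0.94), Pmvk (0.94), an enzyme of the mevalonate pathway, and Frmd4b (0.93). For Cyr61 they were Des (0.94), an intermediate filament of muscle, Axin1 (0.94), a scaffold of the beta-catenin destruction complex, and Sdhaf1 (0.90). For Amotl2 they were Efnb2 (0.89), a membrane-bound ephrin, Psph (0.87) and Acot2 (0.86). Spearman's rho for the same pairs was 0.62, 0.87 and 0.82 for Ctgf, 0.97, 0.93 and 0.98 for Cyr61 and 0.70, 0.52 and 0.55 for Amotl2. The 3 groups of genes share no name.

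In the rest of a published core set of Yap and Taz targets, more tested genes were lower than higher against WT. With 6 tested, these counts cannot decide whether the set had a common direction. Of its 18 further genes 10 were matched in the table and 6 were tested: Myof, Lats2, Asap1, F3, Gadd45b and Dock5. In H3R17H vs WT 1 had a higher and 5 a lower value, with a median log2 difference of -0.24, and in Carm1-/- vs WT 2 and 4, with a median of -0.37. Over all tested genes 47.7% and 46.3% had higher values, and the medians were -0.032 and -0.042. Between the edited groups 2 were higher and 4 lower in Carm1-/- (median -0.08), against 49% and -0.011 over all tested genes. None passed in limma. The 0% of genes past the adjusted threshold compares with 14.2% at an unadjusted p under 0.05 in H3R17H vs WT and 11.4% in Carm1-/- vs WT.

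Gadd45b, a stress-induced signalling protein, was the higher one. It was at 0.91, 5.39 and 0.053 FPKM in WT, at 8.72, 16.9 and 7.32 FPKM in the H3R17H-labelled libraries and at 5.32, 6.21 and 9.02 FPKM in those labelled Carm1-/-. All libraries labelled H3R17H were above all WT libraries (13.3% of tested genes were so), and its difference was 2.27 (SE 0.59; limma, adjusted p = 0.224). The difference in Carm1-/- vs WT was 1.72 (SE 0.59; adjusted p = 0.336, limma). Myof, a membrane repair protein, went the other way, at 0.93 to 2.34 FPKM in WT, at 0.0054 to 0.63 in the H3R17H-labelled libraries and at 1.88, 0 and 0 in those labelled Carm1-/-. Its differences were -1.11 and -0.85 (SE 0.46; limma, adjusted p = 0.331 and 0.493). F3, tissue factor, ranged from 0 to 3.43 FPKM in the edited libraries against 0.22 to 0.61 FPKM in WT.

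**Figure D4:**
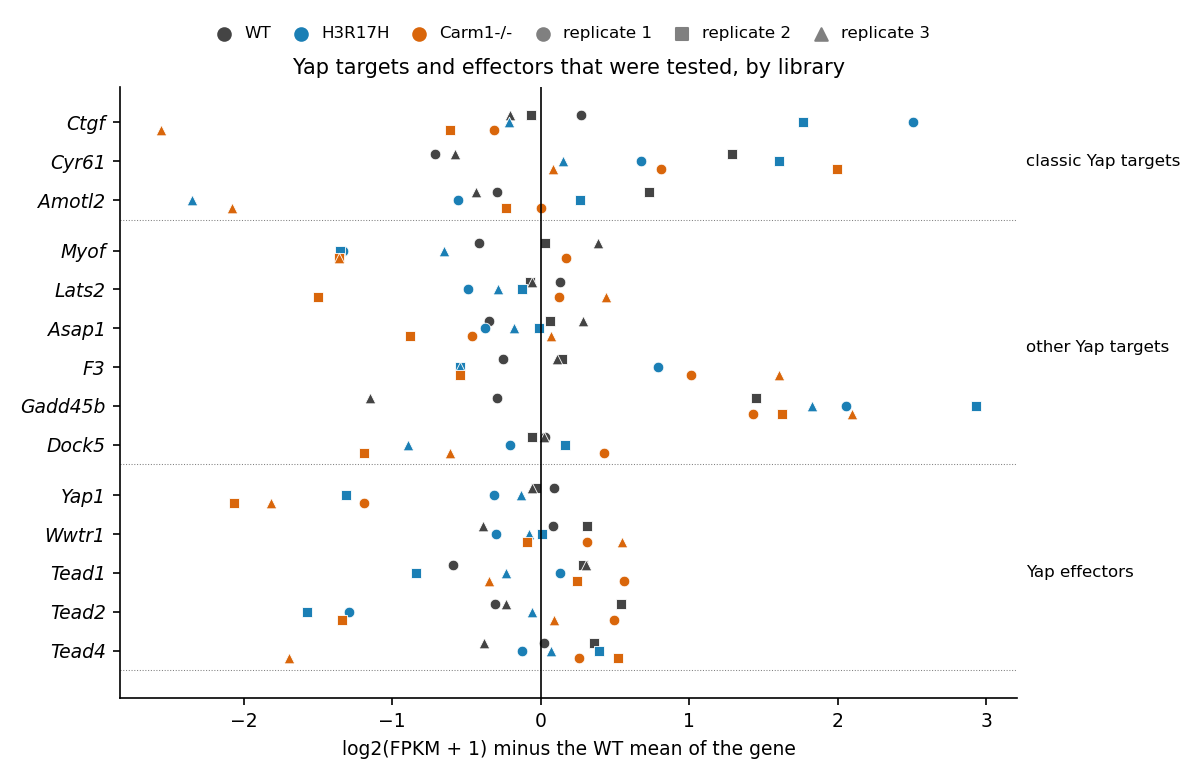
Log2(FPKM + 1) minus the WT mean of the gene in each library (colour, label; symbol, replicate number) for the tested classic Yap targets, the other tested targets and the tested effectors. Ctgf lies more than 1 to the right in 2 libraries labelled H3R17H and in no other, Amotl2 lies far to the left in replicate 3 of both edited groups, and Yap1 is to the left of all WT libraries in the 6 edited ones, as 4.34% of tested genes are.

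Upstream of the targets, Yap1 itself was at 8.73 to 9.80 FPKM in WT, at 7.18, 3.10 and 8.24 FPKM in the H3R17H-labelled libraries and at 3.45, 1.42 and 1.88 FPKM in those labelled Carm1-/-. The library with the lowest Yap1, replicate 2 labelled Carm1-/-, had the highest Cyr61, at 72.8 FPKM. It also had the most genes listed at 0 (2676), and the relation of Cyr61 with Yap1 over all libraries did not pass. In all 6 edited libraries Yap1 was below every WT library, which held for 4.34% of the tested genes. Yap1 differed by -0.58 and -1.69 (SE 0.38; limma, adjusted p = 0.508 and 0.2) and did not pass. Wwtr1 was at 13.9 to 23.3 FPKM in WT, against 14.9 to 27.6 FPKM in the edited libraries. Of 6 effectors 5 were matched and tested (Yap1, Wwtr1, Tead1, Tead2 and Tead4). Of these 1 was higher and 4 lower in H3R17H vs WT (median -0.31), 2 and 3 in Carm1-/- vs WT (median -0.25), and 3 and 2 in Carm1-/- vs H3R17H (median 0.38). Tead2 was at 10.5 to 19.8 FPKM in WT, against 4.83, 3.81 and 12.8 FPKM in the H3R17H-labelled libraries (difference -0.97, SE 0.53; limma, adjusted p = 0.43).

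All 22 Hippo kinases and inhibitors were matched and 20 tested, with 8 higher and 12 lower in H3R17H vs WT (median -0.11) and 9 and 11 in Carm1-/- vs WT (median -0.016). In Carm1-/- vs H3R17H 13 were higher and 7 lower (median 0.10). The list includes Amotl2 itself and Lats2, which was also counted among the core targets. It holds both kinases and inhibitors of Lats, so these counts give no direction of the pathway. Taok1, a kinase upstream of the Hippo kinases, was at 1.40 to 4.85 FPKM in WT, against 7.36 to 8.71 FPKM in the H3R17H-labelled libraries (difference 1.22, SE 0.36; limma, adjusted p = 0.237). Stk3, a Hippo kinase, was at 4.53 to 7.32 FPKM in WT and 2.20 to 4.32 in that group (difference -0.68, SE 0.34; limma, adjusted p = 0.396). In the libraries labelled Carm1-/- Stk3 was similar, at 2.13 to 3.91 FPKM (difference from WT -0.67, SE 0.34, limma adjusted p = 0.482). In Carm1-/- vs WT the lowest p were those of Ajuba, a Lats inhibitor (difference -1.03, SE 0.48; limma, adjusted p = 0.445), and Amotl1 (1.04, SE 0.51; limma, adjusted p = 0.46).

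The families of the 4 genes held few other members at a measurable level. Of the 6 CCN genes 3 were matched, and beside Ctgf and Cyr61 this was Wisp2, at 0 to 1.41 FPKM and not tested. In the angiomotin family Amot was at 2.41 to 4.20 FPKM in WT, 1.06 to 2.70 in the H3R17H-labelled libraries and 2.43 to 4.93 in those labelled Carm1-/-. Amotl1 was at most 0.27 FPKM in WT and was above that in 5 of the 6 edited libraries, up to 3.18 FPKM in replicate 2 labelled H3R17H. Amotl2 was thus the most abundant angiomotin in 7 of the 9 libraries, with Amot above it in replicate 3 of each edited group. Of the 3 muscle ankyrin repeat genes 2 were matched. Ankrd23 was at 0.18 to 0.83 FPKM in WT, at 1.39, 2.64 and 4.26 FPKM in the H3R17H-labelled libraries and at 0, 0 and 1.07 FPKM in those labelled Carm1-/- (H3R17H vs WT 1.25, SE 0.42; limma, adjusted p = 0.263).

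Ctgf and Cyr61 are also known targets of serum response factor and of Smad proteins, and those programmes were read from 2 further lists. Of 20 serum response factor and immediate early targets 18 were matched and 15 tested, 8 higher and 7 lower in H3R17H vs WT (median 0.11), 7 and 8 in Carm1-/- vs WT (median -0.09) and 8 and 7 in Carm1-/- vs H3R17H (median 0.049). Jun was at 2.91 to 4.50 FPKM in WT, 10.3, 3.45 and 11.6 in the H3R17H-labelled libraries and 8.77 to 10.2 in those labelled Carm1-/- (Carm1-/- vs WT 1.21, SE 0.40; limma, adjusted p = 0.317). Junb was at 0.024 to 1.02 FPKM in WT and 1.88 to 2.82 in the H3R17H-labelled libraries, but at 0.022 to 0.71 in those labelled Carm1-/- (Carm1-/- vs H3R17H -1.33, SE 0.36; limma, adjusted p = 0.413). Klf6 was at 51.9 to 97.5 FPKM in WT and 24.2 to 39.5 in the H3R17H-labelled libraries (difference -1.31, SE 0.41; limma, adjusted p = 0.247). In replicates 1 to 3 labelled Carm1-/- Klf6 was at 57.5, 17.5 and 28.1 FPKM. Its difference from WT there was -1.26 (SE 0.41, limma adjusted p = 0.312). Of 13 TGF-beta and Smad targets 8 were matched and 5 tested, 3 higher and 2 lower in H3R17H vs WT (median 0.33), 2 and 3 in Carm1-/- vs WT (median -0.27) and 3 and 2 in Carm1-/- vs H3R17H (median 0.033). Id2, an inhibitor of helix-loop-helix factors that the trophectoderm also expresses, was at 308 to 536 FPKM in WT. It was at 39.3 to 74.5 FPKM in the H3R17H-labelled libraries and at 296, 32.4 and 25.7 FPKM in those labelled Carm1-/-, below all WT libraries in all 6 (4.34% of tested genes were so), with differences of -2.95 and -2.72 (SE 0.74; limma, adjusted p = 0.223 and 0.266). Smad7, an inhibitory Smad, was at 3.80 to 4.81 FPKM in WT, 4.76 to 7.04 in the H3R17H-labelled libraries and 2.27 to 5.34 in those labelled Carm1-/-.

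Cdx2 and Gata3, transcription factors of the trophectoderm, were read as lineage genes beside the Yap targets. Cdx2 was at 5 to 10.2 FPKM in WT, at 5.70, 2.34 and 6.52 FPKM in the H3R17H-labelled libraries and at 12.7, 0.60 and 0.14 FPKM in those labelled Carm1-/-. Gata3 was at 277 to 369 FPKM in WT, at 147 to 219 FPKM in the H3R17H-labelled libraries and at 276, 73.9 and 77.7 FPKM in those labelled Carm1-/-. Cdx2 overlapped with WT in both edited groups, and Gata3 was below every WT library in all 6 edited ones, as 4.34% of tested genes were. Neither passed in limma (adjusted p at least 0.257 in the 4 comparisons). Sox2, which Yap represses in the outer cells, was at 1.18 to 3.14 FPKM in WT, against 0.12 to 3.14 FPKM in the edited libraries. Of 14 tested trophectoderm markers 12 had lower values in each edited group, with medians of -1.19 and -0.98. The medians over all tested genes were -0.032 and -0.042. By library, the median difference of these markers from the WT mean was 0.20, -1.77 and -1.28 in replicates 1 to 3 labelled Carm1-/-. The tested epiblast and primitive endoderm markers had medians of -0.22 and -0.65 in H3R17H vs WT and of -0.05 and -0.23 in Carm1-/- vs WT.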

How the data were processed

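RNA was measured in 9 mouse embryo libraries, grouped by their titles. The authors deposited FPKM for every gene and library in a single file; that the columns are FPKM follows from the file's own name and its values. Bowtie 0.12.2, GRCm38 and mm10 are listed in the submitters' processing notes, without their roles. Which program and annotation gave the FPKM is not given in the sources used here.

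A gene was tested if 3 or more libraries reached 1 FPKM. limma 3.58.1 (R 4.3.3) was fitted once to log2(FPKM + 1) of all 9 libraries, with an intensity trend. P-values were adjusted by Benjamini-Hochberg across the tested genes, and calls were made under 0.05. The fit was tested on simulated data. Exact permutation tests used scipy 1.17.1. Promoters came from RefSeq (GRCm38.p6) and gene positions from GENCODE M21. The 4 genes and the lists of Yap targets, pathway genes and cell type markers were chosen with earlier results of these data known. Named beside the 4 genes were Carm1, 6 genes of Yap signalling and the lineages, from each list and comparison up to 2 genes of smallest p, and the 3 most alike genes of each target; some of these are not reported. Over all tested genes same-numbered libraries did not deviate together (correlation across genes -0.05 to 0.183 over 9 pairs), so numbers were not used as pairs. The tested targets themselves did keep an order by number, as given above. Alternatives changed the pseudocount, filter, scaling, trend, weights, libraries in the fit, a sex term and a replicate block.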

Additional observations from a re-analysis of the deposited data

How the results depend on the processing

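Over the alternatives, 0 of 249 differences of Ctgf, Cyr61 and Amotl2 passed the threshold (lowest adjusted p in limma, 0.0842), and 234 kept their direction. The direction changed for Ctgf in edited vs WT with a pseudocount of 0.1 (-0.40) and array quality weights (-0.29), for Cyr61 (-0.067) and Amotl2 (-0.19) in Carm1-/- vs H3R17H with array quality weights, and for Amotl2 in Carm1-/- vs WT in the libraries with Y-linked transcripts (0.0035). The cause was not tested. With each library left out, Ctgf in edited vs WT ran from -0.19 to 0.49, and Cyr61 and Amotl2 in Carm1-/- vs H3R17H from -0.37 to 0.59 and from -0.63 to 0.76. With a sex term Ctgf was 2.35, -0.16 and 1.10 in H3R17H, Carm1-/- and edited vs WT, Amotl2 was -0.33, -0.22 and -0.28, and Cyr61 was 0.67, 0.82 and 0.74. All WT libraries had Y-linked transcripts, so this term was set by replicate 1 against replicates 2 and 3 of the edited groups. Replicate 1 labelled Carm1-/- stood apart from its group, and the term cannot separate sex from other traits of these libraries. For Ankrd1, not tested, the pseudocount sets the log2 difference, which rests on 1 library above 0.1 FPKM: 0.32 in Carm1-/- vs WT and 0.34 in Carm1-/- vs H3R17H with 1, and 0.97 and 1.16 with 0.1. These are no measured folds.

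The number of genes past the threshold, 0 in each comparison, was less stable. In H3R17H vs WT it was 1 with a pseudocount of 5, 240 with only the groups compared, 192 with array quality weights and 5 in the libraries with Y-linked transcripts, and 0 to 125 with each library left out (125 without Carm1-/- replicate 1). In Carm1-/- vs WT it was 1 with a pseudocount of 0.1 and 1 with array quality weights, and 0 to 549 with each library left out (549 without Carm1-/- replicate 1). In Carm1-/- vs H3R17H it was 1 with a pseudocount of 0.1 or 5, 2 with median-of-ratios scaling or quantile normalization, 3 with no trend and 6 in the libraries with Y-linked transcripts, and 0 to 10 with each library left out. In edited vs WT it was 465 with array quality weights and 0 to 623 with each library left out (623 without Carm1-/- replicate 1); only the groups compared was not run there, since all groups enter. With a replicate block 0 genes passed in each comparison, and Ctgf, whose difference in Carm1-/- vs H3R17H stayed at -2.51 by construction, had an SE of 0.47 (limma, adjusted p = 0.364).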
